A study of Mus musculus with 12 samples.

Results

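The AP-1 subunits of the Fos and Jun families were taken as the genes named Fos, Fosb, Fosl1, Fosl2, Jun, Junb and Jund in the deposited expression table. All 7 were present among its 54532 genes, and all 7 passed the filter on low values that left 17664 genes for testing. The table came from RNA sequencing of mouse brain tissue in 4 groups of 3 libraries. Mice of the treated groups were given 5-aminolevulinic acid (5-ALA) at 20 mg/kg. This heme precursor is turned by cells into protoporphyrin IX, a pigment activated by light. After 30 min of circulation the mice were irradiated with a 635 nm laser at a labelled dose of 20 J/cm. This is photodynamic therapy (PDT), and brains were collected 1.5 h, 12 h or 48 h afterwards. Perfusion with 0.9% NaCl is labelled for all 4 groups, the controls included. Control samples carry PBS in their titles and untreated as their treatment, without a statement on injection or irradiation of the control mice. The same sample labels name BALB/c in one field and C57BL/6 in another, and they give no brain region, age, sex or time of day. Whether the libraries come from different animals is not stated, so the p-values measure only the spread between these libraries, which may be technical.

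AP-1 is a dimeric transcription factor built from basic leucine zipper proteins. Fos family proteins do not form stable dimers with one another and bind DNA as partners of Jun family proteins, whereas Jun proteins can also pair among themselves. Fos, Fosb, Jun and Junb are classical immediate early genes, whose transcription in neurons follows synaptic activity, calcium entry and injury without prior protein synthesis. Fosl1 and Fosl2 encode Fra-1 and Fra-2, which lack the strong transactivation domain of Fos and usually appear later, and Jund is expressed in many resting tissues.

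The libraries held 15348579 to 17444654 reads recovered from the deposited values. Across genes, replicate libraries correlated with Pearson r from 0.919 to 0.987 over 12 pairs. At 1.5 h, replicates 1 and 3 stood apart from all others: the mitochondrial share of reads was 12.4% and 9.14%, against 4.16% in 1.5 h replicate 2 and 4.16% to 6.02% in the controls. Among genes of at least 5 FPKM (fragments relative to gene length and sequencing depth), the values in these libraries fell with gene length, with slopes of -0.366 and -0.226 on the log2 scale for each doubling of length. That slope was 0.118 in 1.5 h replicate 2 and between 0.090 and 0.116 in the controls. Neuron markers, the check of the labelled tissue, summed to between 759 and 1268 FPKM in all 12 libraries. In bulk tissue, a change in the number of cells of a type and a change in RNA per cell cannot be told apart.

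Promoter sequences are shown for Fos, Fosb, Jun and Junb, the 4 members usually described as immediate early genes, because the positions of the elements that receive signals are part of what these genes are known for. RefSeq promoter entries on build GRCm38.p6 matched 6 of the 7 members, with Fosl1 the exception. Each sequence is the 250 bases before the RefSeq start site, written 5′ to 3′ on the strand of the gene, with capitals marking a core of the cyclic AMP response element (TGACG) or, in Jun, the 2 AP-1-like sites TGACATCA and TTACCTCA. The windows lie at chr12:85473640-85473889 on the plus strand for Fos, and on the minus strand at chr7:19310046-19310295 for Fosb, chr4:95052223-95052472 for Jun and chr8:84978749-84978998 for Junb.
Fos: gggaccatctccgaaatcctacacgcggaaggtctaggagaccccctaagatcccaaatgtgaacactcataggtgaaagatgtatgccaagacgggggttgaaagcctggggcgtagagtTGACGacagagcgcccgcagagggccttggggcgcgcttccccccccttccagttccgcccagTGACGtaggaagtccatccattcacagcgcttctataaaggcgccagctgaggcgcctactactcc
Fosb: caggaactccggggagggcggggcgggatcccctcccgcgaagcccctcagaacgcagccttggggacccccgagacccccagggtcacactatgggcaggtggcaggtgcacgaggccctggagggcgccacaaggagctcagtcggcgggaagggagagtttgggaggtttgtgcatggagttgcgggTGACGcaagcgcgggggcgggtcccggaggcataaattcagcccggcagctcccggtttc
Jun: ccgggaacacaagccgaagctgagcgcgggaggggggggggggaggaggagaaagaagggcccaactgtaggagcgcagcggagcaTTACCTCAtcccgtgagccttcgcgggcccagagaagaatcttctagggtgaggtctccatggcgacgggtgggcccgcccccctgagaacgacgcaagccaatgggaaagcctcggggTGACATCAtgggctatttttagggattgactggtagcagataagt
Junb: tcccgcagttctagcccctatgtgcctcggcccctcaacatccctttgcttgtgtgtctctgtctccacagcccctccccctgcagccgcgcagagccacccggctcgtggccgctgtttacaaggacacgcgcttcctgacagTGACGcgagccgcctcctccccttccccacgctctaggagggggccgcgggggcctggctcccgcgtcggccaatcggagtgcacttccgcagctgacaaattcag

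Counted from the start site, the Fos window held TGACG at -129 to -125 and at -66 to -62, with a TATAAA match at -33 to -28. The Fosb window held TGACG at -60 to -56, and the Junb window held it at -106 to -102. In Jun, TTACCTCA stood at -164 to -157 and TGACATCA at -45 to -38, with CCAAT at -65 to -61. Junb had CCAAT at -36 to -32. Searched on both strands of 32851 windows of the same length, TGACG occurred in 17.8%, TGACATCA in 2.93%, TTACCTCA in 0.728%, CCAAT in 33.8% and TATAAA in 12.4%. TGACG is contained in the full palindrome TGACGTCA, which occurred in 1.55% of windows and in none of the 6 members. The consensus AP-1 site TGANTCA (6.75% of windows) and the CArG box (1.47%), the binding site of serum response factor, were also not matched in these windows. Only the 250 bases before each start site were searched, so sites further upstream or downstream would not be seen. The Fosl2 and Jund windows held no match to any searched motif, and their RefSeq start sites lie 671 bases downstream and 1210 bases upstream of the gene starts used in the table. A match is a description of the letters and not evidence of binding.

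**Figure D1:**
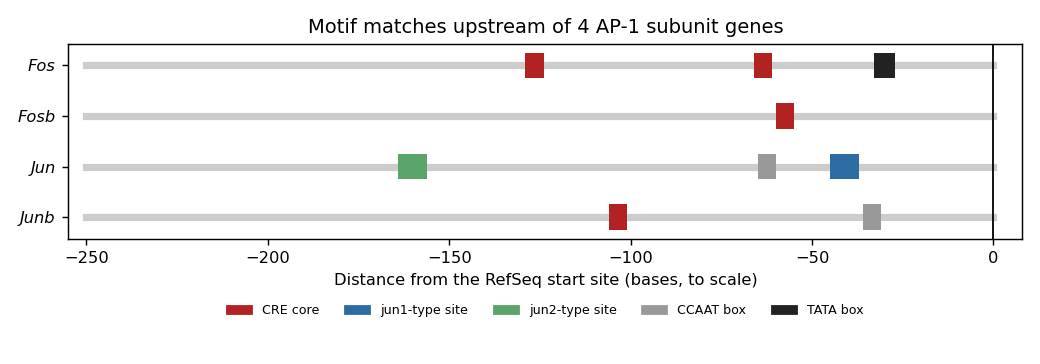
Positions of the searched motifs in the 250 bases before the RefSeq start sites of Fos, Fosb, Jun and Junb; the x axis gives the distance from the start site in bases, and each coloured block is a match drawn to scale. The CRE core (TGACG) occurs in Fos, Fosb and Junb, and the jun1-type (TGACATCA) and jun2-type (TTACCTCA) sites occur in Jun.

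Among the Fos family, Fos is the founding member and the most widely used marker of neuronal activation. It lies at chr12:85473890-85477273 (plus strand, GRCm38; identifier ENSMUSG00000021250) and its principal transcript has 4 exons. Its level was 10.3, 23.1 and 34.7 FPKM in the 3 control libraries, 46.7, 139 and 401 at 1.5 h, 699, 553 and 376 at 12 h, and 46.5, 34.5 and 101 at 48 h. Every 1.5 h and 12 h library lay above every control library, while the 48 h libraries overlapped the controls. The 1.5 h libraries were the most scattered, with a mean of 196 ± 184 FPKM (SD, n = 3) against 22.7 ± 12.2 in the controls. At 12 h the mean was 543 ± 161 FPKM, and at 48 h it was 60.5 ± 35.2.

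Fosb, whose splice variant deltaFosB accumulates in neurons after repeated stimulation, lies at chr7:19302696-19310051 (minus strand; ENSMUSG00000003545). It stood at 1.57, 2.92 and 5.56 FPKM in controls, 12.2, 47.9 and 94.4 at 1.5 h, 242, 228 and 197 at 12 h, and 12.8, 15.7 and 30.7 at 48 h. No treated library at any time reached down to the control range. The group means were 3.35 ± 2.03, 51.5 ± 41.2, 222 ± 22.8 and 19.7 ± 9.64 FPKM (SD, n = 3 each), so that the 12 h mean was 66.3 times the control mean. The table gives 1 value per gene and does not separate the splice variants.

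Fosl2, encoding Fra-2, lies at chr5:32135801-32157842 (plus strand; ENSMUSG00000029135). Its levels were 2.05, 2.64 and 6.45 FPKM in controls, 5.18, 12.9 and 10 at 1.5 h, 84.5, 87.3 and 65.8 at 12 h, and 9.73, 7.4 and 7.54 at 48 h. Control replicate 4 lay within the 1.5 h range, and all 12 h libraries stood above all 9 others. Fosl1, encoding Fra-1, lies at chr19:5447703-5455945 (plus strand; ENSMUSG00000024912). Its levels were 4.23, 4.41 and 3.22 FPKM in controls, 3.62, 5.27 and 4.44 at 1.5 h, 15.8, 14.8 and 22.6 at 12 h, and 10.7, 7.71 and 9.36 at 48 h. The 1.5 h and control libraries of Fosl1 overlapped, and its 12 h and 48 h libraries were all above the controls. Fosl1 was the most thinly sampled member, with 75 to 614 recovered reads per library.

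In GENCODE M21, Fosl1 shares 1163 of its 2033 exonic bases with Ccdc85b on the opposite strand. The gene spans listed in the deposited table do not overlap, with Ccdc85b at chr19:5456789-5457397 (minus strand), so whether reads of one were counted for the other is not known. Strandedness of the libraries is not given in the sources used here. Ccdc85b was far more abundant, at 164 ± 32 FPKM in controls, 471 ± 249 at 1.5 h, 271 ± 10.2 at 12 h and 288 ± 106 at 48 h (SD, n = 3), and its log2 change at 12 h was 0.74 ± 0.40 (SE; limma, adjusted p = 0.23). Its part in the Fosl1 values was not tested.

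In the Jun family, Jun is a single-exon gene at chr4:95049034-95052222 (minus strand; ENSMUSG00000052684) and encodes the subunit phosphorylated by the Jun N-terminal kinases. Its levels were 15.3, 15.2 and 17.7 FPKM in controls, 46.7, 59.5 and 65.7 at 1.5 h, 130, 114 and 96.5 at 12 h, and 36.5, 33 and 37.6 at 48 h. No libraries of different groups overlapped, and the order was control, 48 h, 1.5 h and 12 h from lowest to highest. The spread within groups was small, at 16.1 ± 1.41, 57.3 ± 9.69, 113 ± 16.8 and 35.7 ± 2.39 FPKM (SD, n = 3) for control, 1.5 h, 12 h and 48 h.

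Junb, which can oppose Jun at some target genes, lies at chr8:84974484-84978718 (minus strand; ENSMUSG00000052837). Its levels were 28, 53.2 and 48.7 FPKM in controls, 132, 94 and 539 at 1.5 h, 365, 272 and 209 at 12 h, and 48.2, 67.3 and 91.8 at 48 h. All 1.5 h and 12 h libraries lay above the controls, and 1.5 h replicate 3 was the highest of the 12 libraries. Jund, at chr8:70698949-70700616 (plus strand; ENSMUSG00000071076), stood at 33, 34.4 and 29.9 FPKM in controls, 90.3, 43.9 and 75.8 at 1.5 h, 61.4, 61.2 and 54.4 at 12 h, and 35.9, 41.9 and 41.5 at 48 h. The lowest 1.5 h value of Jund belonged to replicate 2, the library without the high mitochondrial share. In GENCODE M21 the Jun family genes also share bases with genes on the opposite strand, and reads there cannot be told apart without strand: 173 of 2301 exonic bases of Junb with Prdx2, 232 of 3189 of Jun with Junos, and 877 of 1668 of Jund with Gm11175, which is listed at 0 in every library.

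**Figure D2:**
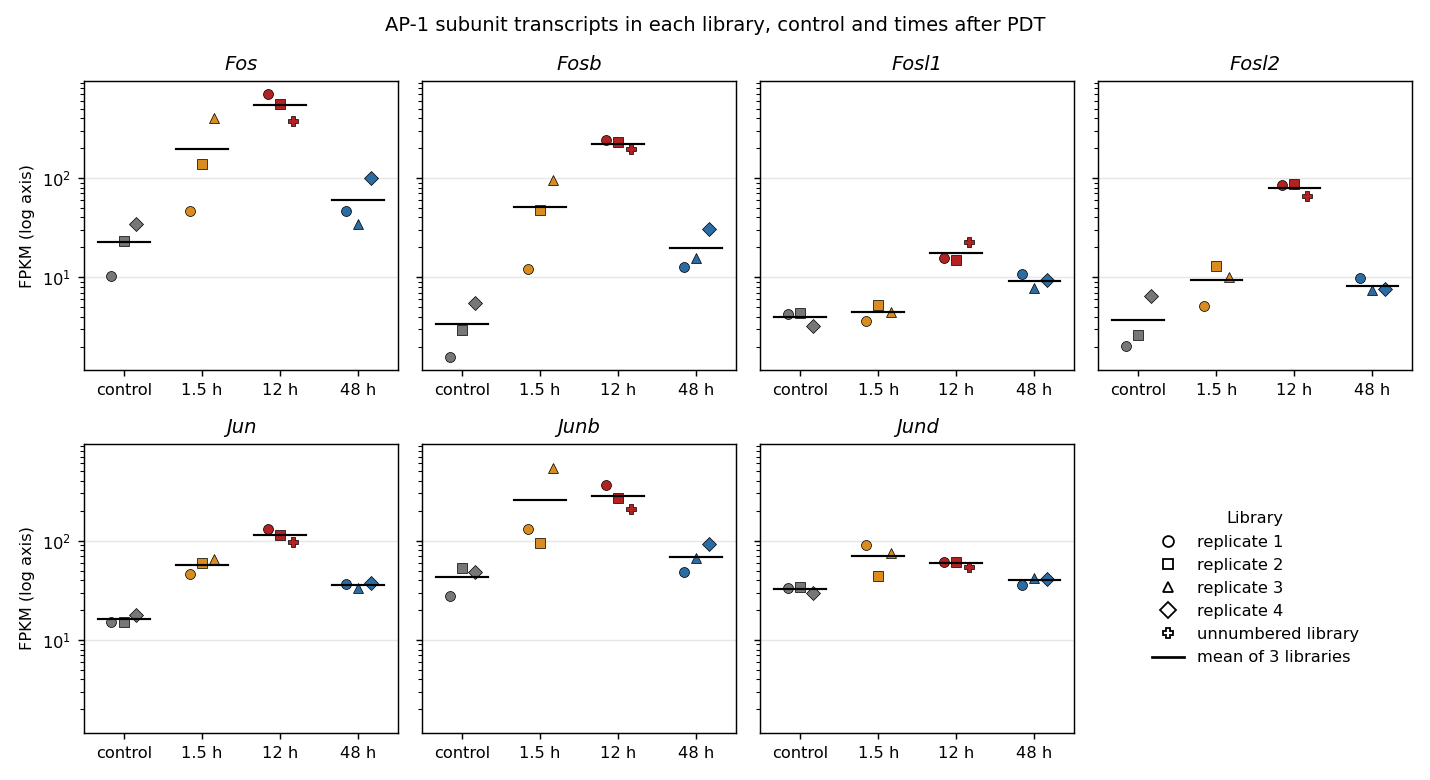
FPKM of the 7 members in every library, on a log axis, by group; points are libraries and bars are group means. For Fosb, Fosl1, Fosl2 and Jun the 12 h libraries lie above all others, whereas Junb and Jund have their highest single values among the 1.5 h libraries.

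At 1.5 h, 2 of the 7 members rose against control, the Fos family member Fosb and the Jun family member Jun. Over all tested genes, 0.419% rose in that comparison at a false discovery rate of 0.05. The change is given as the difference of mean log2(FPKM + 1), which understates the change of genes at low levels. Jun was 1.76 ± 0.16 higher (SE; limma, adjusted p = 0.00079) and Fosb 3.28 ± 0.61 higher (adjusted p = 0.046). Fos, at 2.70 ± 0.69 (adjusted p = 0.086), and Junb, at 2.15 ± 0.55 (adjusted p = 0.086), did not pass the test although all 3 of their 1.5 h libraries exceeded all controls. The same held for Jund, at 1.03 ± 0.22 (adjusted p = 0.068). Fosl2 (1.17 ± 0.34, adjusted p = 0.089) and Fosl1 (0.13 ± 0.19, adjusted p = 0.64) overlapped the controls. In all, 5 members had no overlap with the controls, against 14.6% of tested genes with all 1.5 h libraries higher, and the median change of the members was 1.76 against 0.02 over all tested genes.

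The Fosb call at 1.5 h was lost with no filter on low values (adjusted p = 0.11) and without any 1 of the 12 libraries other than 1.5 h replicate 1 or 2, with adjusted p between 0.058 and 0.19. The Jun call held without each library in turn, and was lost when the fit held only the control and 1.5 h libraries (adjusted p = 0.068). Without 1.5 h replicate 2, 5 members rose: Fos by 2.70 (adjusted p = 0.019), Junb by 2.65 (adjusted p = 0.0023) and Jund by 1.33 (adjusted p = 0.00026) joined Fosb and Jun. In that setting calls were far more frequent over all genes: 4565 of 17664 tested genes rose and 3506 fell, against 74 and 24 in the reported fit. Without 1.5 h replicates 1 and 3 together, the Jund change was 0.43. With the length trend over all genes removed, it was 0.73 and passed (adjusted p = 0.044), and with that of genes above 5 FPKM removed it was 0.38. The part of the high mitochondrial share and length slope of those libraries in the 1.5 h values was not tested.

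At 12 h, all 7 members rose against control, where 13.3% of tested genes rose, and in all 7 every 12 h library was above every control library, where 28.2% of tested genes showed that order. Fosb had the largest change of the members, 5.78 ± 0.61 (SE; limma, adjusted p = 9.4e-05), and ranked 8 from the highest among the tested genes. Fos followed at 4.63 ± 0.69 (adjusted p = 0.00088, rank 16) and Fosl2 at 4.19 ± 0.34 (adjusted p = 2.1e-05, rank 22). In the Jun family, Jun was 2.74 ± 0.16 higher (adjusted p = 2.3e-06), Junb 2.69 ± 0.55 higher (adjusted p = 0.0055) and Jund 0.84 ± 0.22 higher (adjusted p = 0.019). Fosl1 rose by 1.90 ± 0.19 (adjusted p = 6.2e-05). Expressed as ratios of mean FPKM, these changes ran from 1.82 for Jund to 66.3 for Fosb, with 23.9 for Fos and 21.3 for Fosl2. The Jund call was lost without control replicate 1 (adjusted p = 0.056), control replicate 4 (0.068), 12 h replicate 1 (0.06) or 12 h replicate 2 (0.065).

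By 48 h, 3 members were still higher than control, where 7.5% of tested genes rose: Fosb by 2.26 ± 0.61 (SE; limma, adjusted p = 0.033), Jun by 1.11 ± 0.16 (adjusted p = 0.0011) and Fosl1 by 1.05 ± 0.19 (adjusted p = 0.004). The other members stood at 1.38 ± 0.69 for Fos (adjusted p = 0.24), 1.07 ± 0.34 for Fosl2 (adjusted p = 0.065), 0.66 ± 0.55 for Junb (adjusted p = 0.49) and 0.28 ± 0.22 for Jund (adjusted p = 0.46). All 48 h libraries exceeded all controls for 5 members, Fosb, Fosl1, Fosl2, Jun and Jund, against 21.1% of tested genes. The Fosl1 call was lost with the length trend of genes above 5 FPKM removed (0.88, adjusted p = 0.11). The Fosb call was lost with no filter (adjusted p = 0.071) and without control replicate 1 (0.13), control replicate 2 (0.099), 12 h replicate 2 (0.05), 48 h replicate 3 (0.07) or 48 h replicate 4 (0.12). Fosl2 was called with the length trend of genes above 5 FPKM removed (1.27, adjusted p = 0.014), with limma-voom on the recovered reads (1.32, adjusted p = 0.042), and without control replicate 4 (1.46, adjusted p = 0.015), 1.5 h replicate 1 (0.03) or 1.5 h replicate 2 (0.032). The comparisons with control share the same 3 control libraries.

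**Figure D3:**
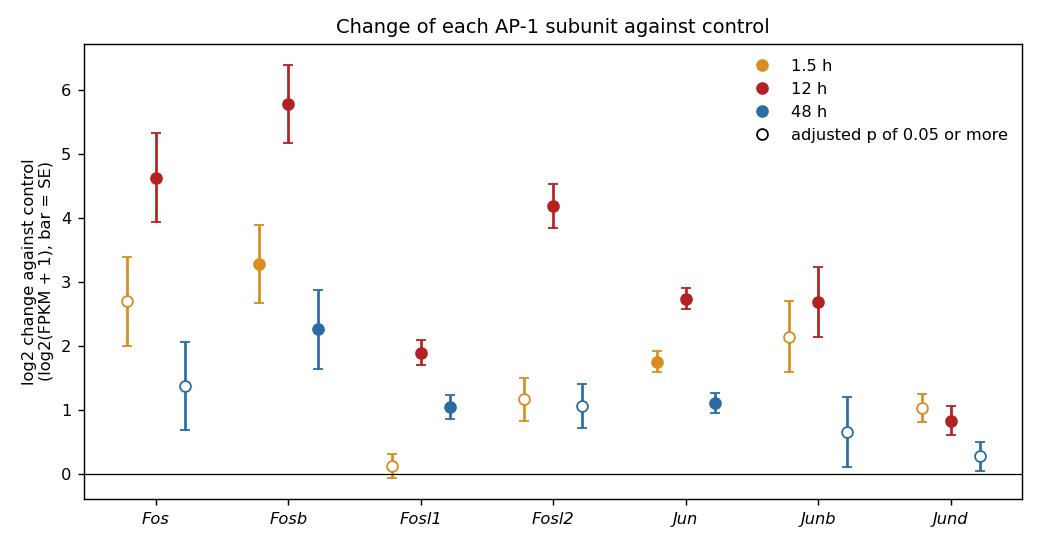
Difference of mean log2(FPKM + 1) from control for the 7 members at 1.5 h, 12 h and 48 h; bars are standard errors from the fit over all 12 libraries, and filled symbols passed a false discovery rate of 0.05. All 7 members passed at 12 h, 2 at 1.5 h and 3 at 48 h.

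Between 1.5 h and 12 h, 4 members rose further: Fosl2 by 3.02 ± 0.34 (SE; limma, adjusted p = 0.00022), Fosb by 2.50 ± 0.61 (adjusted p = 0.011), Fosl1 by 1.77 ± 0.19 (adjusted p = 0.00014) and Jun by 0.98 ± 0.16 (adjusted p = 0.0015). Over all tested genes, 16.9% rose in that comparison. These 4 also had every 12 h library above every 1.5 h library, as did 21.7% of tested genes. Fos was 1.92 ± 0.69 higher at 12 h (adjusted p = 0.053), Junb 0.54 ± 0.55 higher (adjusted p = 0.46) and Jund 0.18 lower on average (-0.18 ± 0.22, adjusted p = 0.53). The Fosb call was lost with only these 2 groups in the fit (adjusted p = 0.055). Fos passed with quantile normalization (2.25, adjusted p = 0.029). Without 1.5 h replicate 3, Fos (2.69, adjusted p = 0.015) and Junb (1.30, adjusted p = 0.032) passed, and without 1.5 h replicate 2 Jund was lower at 12 h (-0.48, adjusted p = 0.0063).

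From 12 h to 48 h, 6 members fell, where 9.73% of tested genes fell. The changes were -3.52 ± 0.61 for Fosb (SE; limma, adjusted p = 0.003), -3.25 ± 0.69 for Fos (adjusted p = 0.0094) and -3.12 ± 0.34 for Fosl2 (adjusted p = 0.00021). Junb changed by -2.02 ± 0.55 (adjusted p = 0.028), Jun by -1.63 ± 0.16 (adjusted p = 9.8e-05) and Fosl1 by -0.86 ± 0.19 (adjusted p = 0.01). Jund was at -0.56 ± 0.22 (adjusted p = 0.11). All 7 members had every 48 h library below every 12 h library, the order seen in 22.2% of tested genes. The Fosl1 call was lost with the length trend of genes above 5 FPKM removed (-1.05, adjusted p = 0.053). The Junb call was lost with no filter (adjusted p = 0.052) and without 12 h replicate 1 (0.1), 12 h replicate 2 (0.08), 48 h replicate 1 (0.085) or 48 h replicate 3 (0.079), and Jund was called with quantile normalization (-0.54, adjusted p = 0.008) and without 1.5 h replicate 2 (adjusted p = 0.0039).

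Set directly against 1.5 h, the 48 h libraries had 1 member higher and 2 lower, with 8.91% of tested genes rising and 8.87% falling. Fosl1 was 0.91 ± 0.19 higher (SE; limma, adjusted p = 0.0075), the only member with all 48 h libraries above all 1.5 h libraries, an order found in 14% of tested genes. Jun, Junb and Jund had all 48 h libraries below all 1.5 h libraries, as did 13.9% of tested genes. Jun was lower (-0.66 ± 0.16, adjusted p = 0.017), as was Jund (-0.74 ± 0.22, adjusted p = 0.039). Junb was at -1.48 ± 0.55 (adjusted p = 0.084), Fos at -1.32 ± 0.69 (adjusted p = 0.2), Fosb at -1.02 ± 0.61 (adjusted p = 0.26) and Fosl2 at -0.10 ± 0.34 (adjusted p = 0.87). With quantile normalization, the calls of Jun (-0.30, adjusted p = 0.36) and Jund (-0.29, adjusted p = 0.11) were lost, and with the length trend of genes above 5 FPKM removed they stood at -0.44 (0.13) and -0.27 (0.055). The Jun call was also lost without 1.5 h replicate 3 (adjusted p = 0.07) or 48 h replicate 3 (0.054). The Jund call was lost without any single library other than 1.5 h replicate 2, with adjusted p from 0.056 to 0.13, and Jund stood at -0.14 without 1.5 h replicates 1 and 3 together. Fosl1 was at 0.70 without that pair (adjusted p = 0.09). Without 1.5 h replicate 1, Fos (-2.10, adjusted p = 0.046) and Fosb (-1.81, adjusted p = 0.023) passed, and without 1.5 h replicate 2 Junb did (-1.98, adjusted p = 0.011).

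FPKM values are scaled by gene length, and levels of different subunits were compared on that scale within a library. In 1.5 h replicates 1 and 3 the values still fell with length, and the members are 1668 (Jund) to 9680 (Fosl2) bases long, so the order, shares and ratios at 1.5 h carry that slope. In the controls the order of mean FPKM was Junb (43.3), Jund (32.4), Fos (22.7), Jun (16.1), Fosl1 (3.95), Fosl2 (3.71) and Fosb (3.35), and the only neighbours whose libraries did not overlap were Jun and Fosl1. At 12 h the order of mean FPKM was Fos (543), Junb (282), Fosb (222), Jun (113), Fosl2 (79.2), Jund (59) and Fosl1 (17.7), and only Junb and Fosb overlapped among neighbours. At 1.5 h all neighbours overlapped, from Junb (255) and Fos (196) to Fosl2 (9.35) and Fosl1 (4.44). At 48 h the order began with Junb (69.1), Fos (60.5), Jund (39.8) and Jun (35.7), followed by Fosb (19.7), Fosl1 (9.24) and Fosl2 (8.22), and neighbours overlapped except Jun with Fosb and Fosb with Fosl1.

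The summed FPKM of the 7 members was 94.4, 136 and 146 in controls, 336, 402 and 1191 at 1.5 h, 1597, 1330 and 1022 at 12 h, and 200, 207 and 319 at 48 h. Within that sum, the 4 Fos family members took 19.2%, 24.3% and 34.2% in controls and 65.2%, 66.4% and 64.8% at 12 h. The 12 h libraries agreed closely, at 65.4% ± 0.832 (SD, n = 3) against 25.9% ± 7.6 in controls, and the 2 groups did not overlap (exact permutation test, two-sided p = 0.1, the smallest that 3 against 3 allows). At 1.5 h the Fos family share was 20.1%, 50.9% and 42.8%, and at 48 h it was 39.8%, 31.5% and 46.4%. Both overlapped the controls (exact permutation test, two-sided p = 0.3 and 0.2).

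By subunit, the share of Fos was 17.2% ± 6.43 in controls and 40.7% ± 3.53 at 12 h (SD, n = 3). Fosb took 2.54% ± 1.12 in controls and 17.2% ± 2.08 at 12 h. The share of Jund moved the other way, from 26.9% ± 7.39 in controls to 4.59% ± 0.739 at 12 h and 17% ± 3.69 at 48 h, with every library of both times below every control (exact permutation test, two-sided p = 0.1 each). The log2 ratio of Fosl1 plus Fosl2 to Fos plus Fosb was -1.62 ± 0.62 in controls, -3.73 ± 1.22 at 1.5 h, -2.95 ± 0.27 at 12 h and -2.08 ± 0.77 at 48 h (SD, n = 3). It was below all controls at 1.5 h and at 12 h (exact permutation test, two-sided p = 0.1 each) and overlapped them at 48 h (p = 0.6 by the same exact test). These are shares of RNA and not of protein or of dimers.

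**Figure D4:**
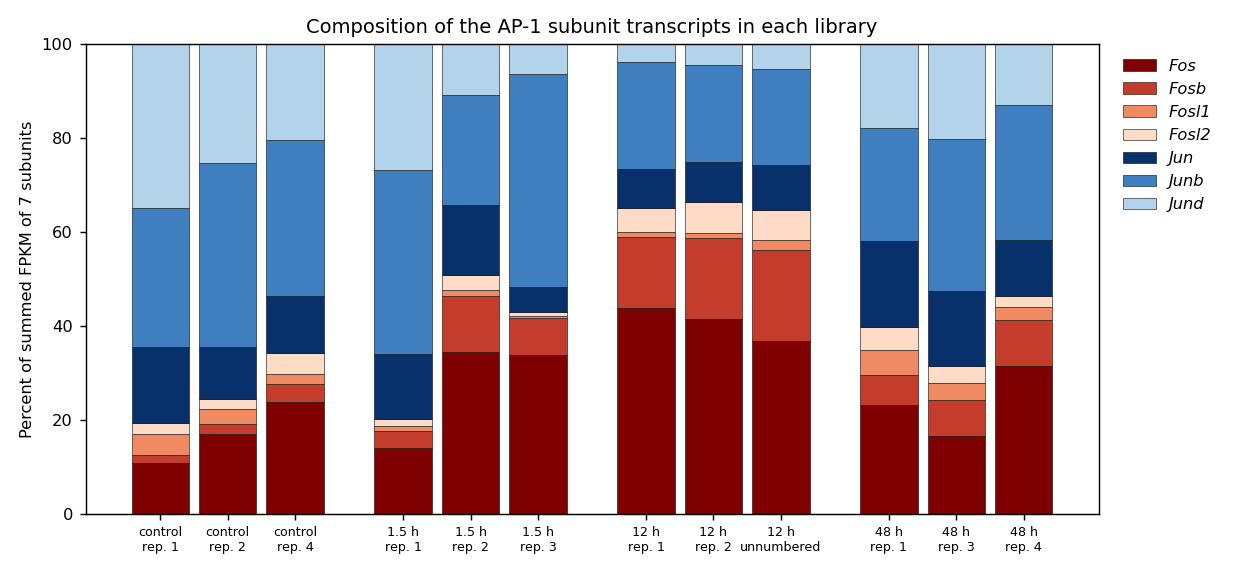
Share of each subunit in the summed FPKM of the 7 members, in percent, for each of the 12 libraries. The 4 Fos family members take 64.8% to 66.4% in the 12 h libraries and 19.2% to 34.2% in the controls, and the Jund share is lowest at 12 h.

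Over the 12 libraries, which share groups and depth, members of the 2 families followed each other to different degrees on the log2(FPKM + 1) scale. Pearson r was 0.98 for Fos with Fosb, 0.97 for Fosb with Jun, 0.94 for Fos with Jun and 0.92 for both Fos with Junb and Fosb with Fosl2. Junb and Jund had r of 0.83. The lowest values were those of Fosl1 with Jund (0.19), Fosl1 with Junb (0.43) and Fosl2 with Jund (0.44). These coefficients describe the 12 libraries and carry no test.

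By the same measure, the genes outside the family with a pattern most like Fos were Cyr61 (r = 0.964), Gadd45g (0.953) and Npas4 (0.951). Npas4 encodes a neuronal transcription factor induced by calcium entry, Gadd45g a growth arrest and DNA damage protein, and Cyr61 a secreted matrix protein. Npas4 averaged 11.7 ± 5.99 FPKM in controls, 282 ± 229 at 1.5 h, 981 ± 215 at 12 h and 29.8 ± 26.8 at 48 h (SD, n = 3). For Fosb the closest were Rgs2 (0.968), Gadd45g (0.965) and Dusp5 (0.961), a dual-specificity phosphatase. For Jun they were Srf (0.968), Gadd45g (0.968) and Gm17501 (0.967), and for Junb they were 1700016P03Rik (0.968), Ier2 (0.962) and Arl4d (0.957).

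The remaining members had other neighbours. Closest to Fosl2 were Midn (0.988), Tiparp (0.985) and Unc45a (0.985), and Tiparp averaged 3.92 ± 2.05 FPKM in controls, 5.85 ± 0.579 at 1.5 h, 34.6 ± 6.13 at 12 h and 6.85 ± 0.151 at 48 h. Closest to Fosl1 were Nfkb2 (0.977), which encodes a subunit of NF-kappaB, Slc20a2 (0.973) and Rdh10 (0.972). Nfkb2 stood at 0.986 ± 0.0783, 1.39 ± 0.186, 5.15 ± 0.379 and 2.99 ± 0.416 FPKM in control, 1.5 h, 12 h and 48 h libraries. Closest to Jund were Slc25a3 (0.975), Polr2c (0.970) and Sft2d1 (0.966). Slc25a3, the mitochondrial phosphate carrier, had 167 and 127 FPKM in 1.5 h replicates 1 and 3 and 81.8 in replicate 2, the same order of libraries as Jund.

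Of 12 other basic leucine zipper proteins that can pair with AP-1 subunits or share their sites, 11 were tested. Against control, 2 rose at 1.5 h (0.419% of all tested genes), 4 rose at 12 h (13.3%), and 2 rose while 1 fell at 48 h (7.5% and 5.01%). The median log2 changes were 0.19, 0.11 and -0.09, against 0.02, 0.00 and 0.00 over all tested genes. Atf3, a stress-induced partner of Jun, was at 0.134, 0.184 and 0.292 FPKM in controls, 17, 6.6 and 10.1 at 1.5 h, 154, 171 and 124 at 12 h, and 12.6, 3.63 and 5.59 at 48 h. Its log2 changes were 3.26, 6.96 and 2.63, each ± 0.37 (SE; limma, adjusted p = 0.0054, 1.5e-06 and 0.001). The Atf3 call at 1.5 h was lost with only the 2 groups in the fit (adjusted p = 0.068) and without 1.5 h replicates 1 and 3 together (2.66, adjusted p = 0.11). Maff, a small Maf protein without a transactivation domain, rose by 1.48, 3.85 and 1.28, each ± 0.21 (adjusted p = 0.017, 1.5e-06 and 0.0023), and its 1.5 h call was lost with only the 2 groups in the fit (0.2), with the length trend of genes above 5 FPKM removed (0.079), and without 1.5 h replicates 1 and 3 together (0.11), control replicate 1 (0.097), control replicate 2 (0.085) or 1.5 h replicate 3 (0.07). Jdp2, a repressor that dimerises with Jun, was lower at 48 h, at 12.5 ± 2.36 FPKM against 23.7 ± 4.76 (SD, n = 3; limma, adjusted p = 0.0097).

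Kinases that act on Fos and Jun proteins, directly or through other kinases, numbered 16, all tested. None rose or fell at 1.5 h, where 0.419% of all tested genes rose and 0.136% fell. At 12 h, 1 rose and 2 fell, where 13.3% of all tested genes rose and 7.9% fell, and at 48 h none rose and 2 fell, where 7.5% rose and 5.01% fell. The median changes were -0.09, -0.25 and -0.27 against 0.02, 0.00 and 0.00 over all tested genes. Map2k5 was lower at 12 h (-0.49 ± 0.11, adjusted p = 0.01; 0.053 without control replicate 1). Rps6ka3, encoding the ribosomal S6 kinase RSK2, was higher at 12 h (0.78 ± 0.25, adjusted p = 0.043), a call lost with a pseudocount of 0.1 (0.051), with no filter (0.072) and without any 1 of the 9 control, 12 h and 48 h libraries (adjusted p from 0.052 to 0.12). Rps6ka2 was lower at 48 h (-0.81 ± 0.20, adjusted p = 0.022), a call lost without any control replicate or 48 h replicate 3 or 4. The table measures RNA, and the activity of these kinases was not measured.

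Factors that act on the promoters of Fos and Jun numbered 13 tested, of which 1 rose at 1.5 h (0.419% of all tested genes), 5 rose at 12 h (13.3%), and 3 rose and 1 fell at 48 h (7.5% and 5.01%). The median changes were -0.12, 0.02 and -0.11, against 0.02, 0.00 and 0.00 over all tested genes. Srf, serum response factor, was at 19, 19.8 and 19.6 FPKM in controls, 31.9, 33.5 and 33.6 at 1.5 h, 50.6, 49.4 and 47.2 at 12 h, and 21.2, 25.1 and 27.2 at 48 h. Its change was 0.73 ± 0.11 at 1.5 h (SE; limma, adjusted p = 0.021) and 1.29 ± 0.11 at 12 h (adjusted p = 3.2e-05), and the 1.5 h call was lost without any control library, 1.5 h replicate 3 or 12 h replicate 2, with adjusted p from 0.052 to 0.13. It was also lost with only the 2 groups in the fit (0.23), with quantile normalization (0.43, adjusted p = 0.098), with the length trend removed (0.56, adjusted p = 0.063), with that of genes above 5 FPKM removed (0.39, adjusted p = 0.1), and without 1.5 h replicates 1 and 3 together (0.11). Crem, which gives rise to inducible repressors of cyclic AMP responses, rose at 12 h from 2.2 ± 0.308 to 6.75 ± 0.196 FPKM (SD, n = 3; limma, adjusted p = 6.1e-05). Stat3, which acts on the Fos promoter downstream of cytokine receptors, rose by 1.63 ± 0.17 at 48 h (limma, adjusted p = 0.00011). Elk3, a ternary complex factor, rose by 0.90 ± 0.19 at that time (adjusted p = 0.01). Both had also risen at 12 h. Mean FPKM in control, 12 h and 48 h libraries was 5.21, 18.2 and 18.4 for Stat3 and 1.29, 3.11 and 3.42 for Elk3. Mef2c was lower at 48 h (-1.27 ± 0.36, adjusted p = 0.042), a call lost with no filter (0.086) and without any single library other than 1.5 h replicates 1 and 2 (adjusted p from 0.051 to 0.14).

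Of 11 tested turnover regulators and coregulators of Jun and Fos, 1 rose at 12 h, where 13.3% of all tested genes rose, and at 48 h, where 7.5% rose, and none rose at 1.5 h. The median changes were 0.33, 0.09 and 0.03, against 0.02, 0.00 and 0.00. The gene that rose was Zfp36, tristetraprolin, which binds AU-rich elements and speeds the decay of short-lived messengers. Zfp36 stood at 0.666, 1.08 and 1.25 FPKM in controls, 3.16, 2.1 and 5.23 at 1.5 h, 19.8, 12.5 and 17.7 at 12 h, and 5.48, 3.86 and 5.2 at 48 h. Its change was 3.13 ± 0.25 at 12 h (SE; limma, adjusted p = 1.9e-05) and 1.55 ± 0.25 at 48 h (adjusted p = 0.0023).

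Described AP-1 targets are genes with known AP-1 sites or dependence on AP-1 in other systems. This list was chosen with earlier results of these data known and is not independent evidence of its direction. Of 21 tested, 1 rose at 1.5 h (0.419% of all tested genes), 17 rose at 12 h (13.3%) and 15 rose at 48 h (7.5%), with none falling. The median changes were 0.04, 1.85 and 1.94, against 0.02, 0.00 and 0.00 over all tested genes. Ptgs2, cyclooxygenase 2, was the target that rose at 1.5 h, by 2.66 ± 0.39 (SE; limma, adjusted p = 0.021). That call was lost with no filter (0.058), with only the 2 groups in the fit (0.28), and without control replicate 1 (0.11) or control replicate 2 (0.096). Plaur, the urokinase receptor, rose at 12 h from 0.197 ± 0.0662 to 8.66 ± 2.76 FPKM (SD, n = 3; limma, adjusted p = 9.6e-06), and Hbegf, a ligand of the epidermal growth factor receptor, rose from 4.39 ± 0.713 to 22 ± 3.15 (adjusted p = 1.4e-05). Between 12 h and 48 h, 8 of the 21 targets rose, against 5.88% of tested genes, and 6 fell, against 9.73%, while 6 of the 7 subunits fell.

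Timp1, an inhibitor of matrix metalloproteinases, was at 0.651, 0.383 and 0.837 FPKM in controls, 8.91, 7.32 and 14.4 at 12 h, and 64.5, 42.9 and 55.3 at 48 h. Vim, the intermediate filament vimentin of reactive astrocytes and other cells, was at 4.25, 3.38 and 5.03 FPKM in controls, 40.5, 30.2 and 38.3 at 12 h, and 183, 103 and 144 at 48 h. Both were highest at 48 h. At that time Fosb, Jun and Fosl1 were still called higher than control, and Fos, Fosl2, Junb and Jund did not pass the test. The 48 h changes were 5.08 ± 0.23 for Timp1 and 4.76 ± 0.23 for Vim (SE; limma, adjusted p = 1.1e-06 and 1.2e-06). The targets are regulated by other factors as well, and binding of AP-1 was not measured.

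**Figure D5:**
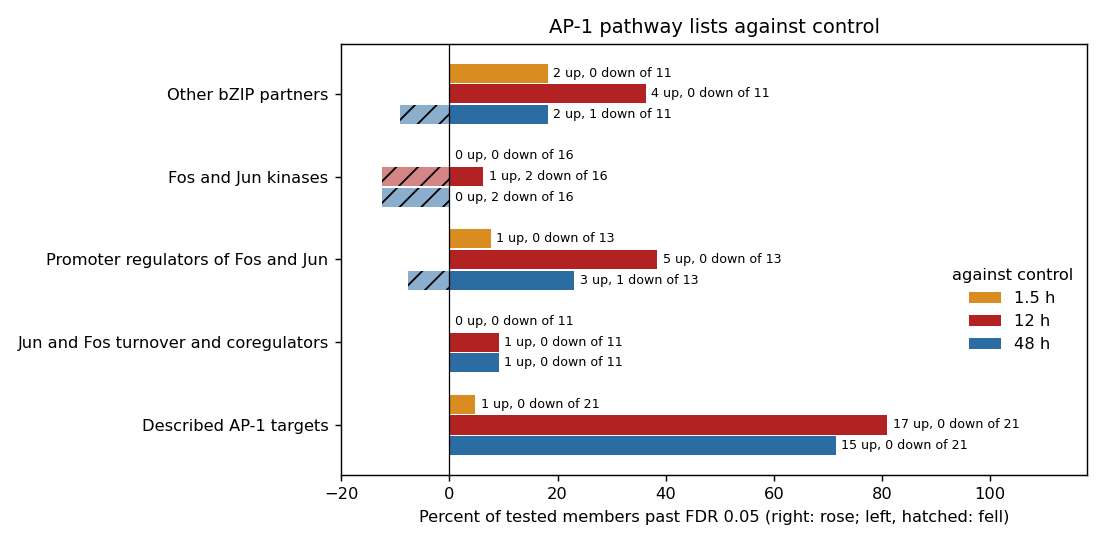
Percent of tested genes in each list that rose or fell against control at 1.5 h, 12 h and 48 h at a false discovery rate of 0.05, with counts beside the bars. Described AP-1 targets rose in 17 of 21 at 12 h and 15 of 21 at 48 h, and the kinases had at most 2 calls in a direction.

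Markers of the cell types that brain tissue holds are given beside these results. Over all tested genes, 0.419%, 13.3% and 7.5% rose against control at 1.5 h, 12 h and 48 h, and 0.136%, 7.9% and 5.01% fell. None of 9 neuron markers rose or fell at any time against control. Summed microglia markers lay between 113 and 121 FPKM in controls, 114 and 264 at 1.5 h, 102 and 105 at 12 h, and 335 and 376 at 48 h, with 4 of 7 falling at 12 h and 5 of 7 rising at 48 h. Summed astrocyte markers were 418 to 442 FPKM in controls, 410 to 471 at 1.5 h, 480 to 529 at 12 h and 268 to 312 at 48 h. At 12 h, 2 of the 7 astrocyte markers rose (Aldh1l1 and Sox9). At 48 h, 3 of the 7 rose (Aqp4, Aldh1l1 and Sox9) and 1, the abundant Aldoc, fell. Slc1a2, Slc1a3 and Gja1 also had all 48 h libraries below all controls, but did not pass the test. Their mean FPKM went from 153 to 75.1, from 47.6 to 36 and from 14.4 to 9.41. Endothelial markers summed to between 23.1 and 26.1 FPKM in controls, 15 and 26.2 at 1.5 h, 50.5 and 63.1 at 12 h, and 47.9 and 75.9 at 48 h. Of these 7 markers, 4 rose at 12 h (Cldn5, Pecam1, Cdh5 and Kdr) and 1 at 48 h (Cldn5). Tek went the other way at 12 h, at 0.764 ± 0.146 FPKM against 1.79 ± 0.164 in controls (SD, n = 3). All its 12 h libraries were below all controls, but it did not pass the test. Oligodendrocyte lineage markers summed to between 728 and 857 FPKM in controls, 751 and 1260 at 1.5 h, 1187 and 1417 at 12 h, and 519 and 1138 at 48 h. Of these 7 markers, 1 (Olig2) rose at 12 h and at 48 h.

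Blood leukocyte markers summed to between 0.99 and 1.29 FPKM in controls, 1.23 and 18.3 at 1.5 h, 14.6 and 25 at 12 h, and 2.49 and 4.92 at 48 h. The 18.3 belonged to 1.5 h replicate 1. At 12 h, 3 of 4 tested members rose (Cd3e, S100a8 and S100a9), where 13.3% of all tested genes rose. Ly6g, a neutrophil marker, was listed at 0 in all libraries except 48 h replicate 3. From controls to 12 h, mean FPKM went from 0.11 to 3.75 for S100a8 and from 0.11 to 7.8 for S100a9. It went from 0.0224 to 0.424 for Mpo, and down from 0.756 to 0.569 for Itgam. Red blood cell markers summed to 365 FPKM in 1.5 h replicate 1 and to at most 56.5 in the other 11 libraries. The part of these shifts in the values of the AP-1 subunits was not tested.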

How the data were processed

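Brain RNA of 12 libraries in 4 groups was analysed from 1 deposited table of FPKM values. The authors had scaled these by gene length and by a total for each library. Per the submitters' processing notes, Bowtie 0.12.2 and the build mm8 were used. The counting tool, annotation and strandedness are not given in the sources used here. Of the identifiers, 54409 are in GENCODE M21 on GRCm38 and 98.33% of these have the same start and end there, so coordinates are given as GRCm38. FPKM times gene length gave whole reads, within 0.05, for 99.98% to 100.0% of values, which gave the depth of 15348579 to 17444654 reads per library. That depth limits Fosl1, at 75 reads in its lowest library, more than the other members. The scaling total was not the number of recovered reads. It was below them in all 1.5 h and 12 h libraries and above them in all control and 48 h libraries. It was 12146486 against 15709617 reads in 1.5 h replicate 1, and 18733504 against 16247614 in 48 h replicate 1. The reported fit kept this scaling, and its part in the changes was not tested. No sample title matches the number of 1 column of the 12 h group, so it was used as a 12 h library without a number.

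The test was that of limma (version 3.58.1, R version 4.3.3) on log2(FPKM + 1), using a mean-variance trend, over all 12 libraries and with Benjamini-Hochberg adjustment over 17664 genes above 0.5 FPKM in at least 3 libraries. The false discovery rate was 0.05 and tests were two-sided. Shares were compared with exact permutation tests. The fit was tested on simulated data. Alternatives changed the pseudocount, filter, variance prior, scaling, length trend, groups in the fit, block and libraries, or used limma-voom on the recovered reads. Removing the length trend of genes above 5 FPKM, and fitting the numbered libraries without a block, were chosen after seeing the data.

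The members, gene lists and marker lists were chosen with earlier results of these data known. All 7 members are named in every comparison. From each pathway or target list, at each time against control, up to 2 rising and 2 falling genes with the smallest p past the threshold are named. Of these, 1 gene is not reported here. For each member, the 3 genes of at least 1 FPKM on average with the highest Pearson r over the 12 libraries are named. Npas4, Tiparp, Nfkb2 and Slc25a3 were chosen among these for printing after their values were seen. The labels do not say whether equal replicate numbers pair libraries across groups, and the reported fit used no block. Over 11 pairs of same-numbered libraries, the median correlation of deviations was -0.004, with a range of -0.264 to 0.156. The deviations are taken from means of few libraries, so this check cannot exclude pairing. Motifs were searched in RefSeq promoters by exact letters on both strands.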

Additional observations from a re-analysis of the deposited data

How the results depend on the processing

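Of 42 changes of single members (7 members in 6 comparisons), 25 passed the threshold, and 14 of these passed in all 23 alternatives. At 12 h against control, 6 members passed in all 23, with Jund the exception. Against control at 1.5 h, where 2 members rose, 1 rose with no filter, 0 with only the 2 groups in the fit, and between 1 and 5 when leaving out each library, with 5 without 1.5 h replicate 2. Without that replicate, 4565 of 17664 tested genes rose and 3506 fell, against 74 and 24 in the reported fit. For 12 h against 1.5 h, where 0 members fell, leaving out single libraries gave 0 to 1. For 48 h against 1.5 h, the 1 member that rose became 0 with only the 2 groups in the fit and 0 without 1.5 h replicates 1 and 3 together. The 2 that fell there became 1 with no filter, 0 with only the 2 groups, 0 with quantile normalization, 0 with the length trend of genes above 5 FPKM removed and 1 without 1.5 h replicates 1 and 3 together, and between 0 and 3 when leaving out each library. Leaving out that pair leaves 1 library at 1.5 h, which is assumed to vary like the other groups. The cause of these differences was not tested.

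The sign turned for Fosl1 at 1.5 h against control, to -0.16 with the length trend removed and -0.50 with that of genes above 5 FPKM. It also turned for Jund at 12 h against 1.5 h, to 0.25 with quantile normalization, 0.08 and 0.49 with those length trends removed, 0.42 without 1.5 h replicates 1 and 3, and 0.03 without 1.5 h replicate 1, with a range of -0.48 to 0.03 over single libraries left out. For Fosl2 at 48 h against 1.5 h it turned to 0.15 without 1.5 h replicate 2, with a range of -0.43 to 0.15 over single libraries left out. None of these passed the threshold in the reported fit. With the replicate block, 0 members rose at 1.5 h against control, and at 48 h against 1.5 h 0 fell. The same 11 numbered libraries without the block gave 1 and 1. The block gave 6 members at 12 h and 2 at 48 h against control, and 1 of 11 libraries correlated best with its own number. Quantile normalization changed the split of all tested genes at 12 h from 2342 rising and 1395 falling to 2175 and 2431.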
